A study of Homo sapiens with 18 samples.

Results

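HCC827 RNA read on the PacBio platform was compared with HCC827 RNA read on the Oxford Nanopore (ONT) platform, gene by gene. HCC827 is an established human lung adenocarcinoma cell line whose growth depends on a mutant EGFR receptor. The comparison takes 6 of the 18 libraries of the series, the 3 labelled HCC827 PacBio and the 3 labelled HCC827 ONT, chosen by label and numbered by the RNA sample they came from. The labels name no treatment, and both groups are the same line, so no biological condition separates them. The labels give 3 independent RNA samples, and nothing says that these came from separate cultures, so p-values measure only the spread between these libraries. The ONT libraries were cDNA libraries started from 1.5 ng of poly(A)-selected mRNA with 14 PCR cycles. PacBio libraries were made by the Iso-Seq method from total RNA, with 12 PCR cycles and a size selection that targeted molecules near 2 kb. RNA input, cycles, size selection and sequencer therefore change together, and their parts in any difference cannot be told apart. The same pair of groups in H1975, another EGFR-mutant lung adenocarcinoma line, is used only to see which differences recur.

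Both methods copy an mRNA from its poly(A) tail into cDNA and read the copy from end to end, so a count is not multiplied by the length of the molecule as it is with short reads. Genes with near-identical relatives are a known difficulty, because a read must be assigned by the few bases that differ. Processed pseudogenes are such relatives: copies of a spliced mRNA that were inserted elsewhere in the genome, without introns and often inside an intron of an unrelated gene. Highly expressed short mRNAs, above all those of ribosomal proteins, have left the most of them.

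The ONT libraries held 116497461, 93412717 and 91344058 gene counts in replicates 1, 2 and 3, and the PacBio libraries held 54339, 40910 and 37795. Over the 3 libraries ONT was 2264 times deeper, so that 1 PacBio count weighs far more than 1 ONT count and low PacBio values carry a wide counting error. The PacBio headers label the counted alignments as clustered, which leaves unknown how many reads 1 count represents. The spread between PacBio replicates 1 and 2 was smaller than sampling noise gives (chi-square of 0.671 on average in 934 genes), and they were summed and counted as 1 sample, which leaves 2 PacBio samples against 3 ONT samples. PacBio replicate 3 stood apart from both (4.41 and 4.88), and its file header alone names poly(A). Epithelial markers were present as the label asks: 8 of 8 had PacBio counts (522 in all). Of the others, 2 of 10 hematopoietic (15 counts), 0 of 7 endothelial and 1 of 8 fibroblast markers (3 counts) had any. At the greater ONT depth 8 of 8, 8 of 10, 6 of 7 and 6 of 8 had counts. Their ONT sums were 7573, 40.1, 1.33 and 2.70 CPM (defined below) in the same order.

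Levels below are CPM, a gene's counts divided by all gene counts of the library and scaled to a common library size, without division by transcript length. Of 58676 genes, 4459 had a mean of the platforms' CPM of at least 50 and were tested with edgeR after trimmed mean of M values (TMM) scaling. Of these, 1052 (23.6%) were called higher in PacBio and 1870 (41.9%) were called lower, at a Benjamini-Hochberg adjusted p below 0.05. Directions depend on the scaling. The median log2 ratio of PacBio over ONT over all tested genes was -0.29 with TMM scaling and 2.58 with library totals alone, a shift of 2.87. With library totals, 2986 genes (67.0%) were called higher and 1039 (23.3%) lower. Calls that hold with TMM scaling, with the relative log expression (RLE) scaling and with library totals number 1050 higher (23.5%) and 1038 lower (23.3%). Of the 1870 genes lower with TMM scaling, 399 were higher with library totals and 433 were not called. Fitted log2 ratios below are TMM values with standard errors, and medians of gene lists are given relative to the median of all tested genes. A call that turns with library totals is named as such. Fold differences and ratios of ONT over PacBio are ratios of CPM on library totals, without TMM scaling. They are therefore not the fitted log2 beside them on another scale. The filter lets a gene in through either platform: 2768 tested genes reached 50 CPM in PacBio alone and 859 in ONT alone. The filter itself makes the CPM of such a gene higher on that platform, although the gene need not be called. Counts over lists are therefore descriptions.

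Processed pseudogenes differed most between the platforms among the gene types compared. They took 27.5%, 26.1% and 26.5% of the counts in ONT replicates 1, 2 and 3. In PacBio they took 0.293%, 0.271% and 0.423%. No PacBio library came near an ONT library. Of 323 tested processed pseudogenes 319 were lower in PacBio, 316 of them also with library totals, and 3 were higher, while 279 had no PacBio count at all. Each of the 323 was compared by sequence with the canonical transcripts of the protein-coding genes of GENCODE. Matches to a coding gene that overlaps the pseudogene were left out. The best match was a ribosomal protein gene for 220 of the 323. The median identity to the best match was 97.3%, and 272 of the 323 reached 95%. The exact permutation test of 2 against 3 samples cannot go below p = 0.2, which is what this share gave (two-sided, adjusted p = 0.229 over 24 measures of library make-up).

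RPL41, which encodes the smallest protein of the large ribosomal subunit, shows how alike gene and copies are. Its whole coding sequence is shown because 4 tested pseudogenes contain it without a single change and another contains all of it but the stop codon.

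RPL41 coding sequence: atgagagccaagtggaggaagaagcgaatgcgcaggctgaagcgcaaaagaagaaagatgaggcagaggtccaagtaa

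The gene lies at chr12:56116590-56117967 (GRCh38, plus strand). ONT gave it 5918, 5731 and 5731 CPM in replicates 1, 2 and 3, and PacBio gave it 0, 1 and 1 counts. The ratio of ONT over PacBio was 386 (exact 95% Clopper-Pearson interval 107 to 3188, counting error only). The copy ENSG00000279483 at chr7:137513859-137513933 reached 5572 CPM over the ONT libraries, ENSG00000264281 at chr5:55944656-55944733 reached 5365, RPL41P5 at chr12:93083598-93083675 reached 4554 and RPL41P1 at chr20:21755270-21755350 reached 3909. RPL41P2 at chr15:28315651-28316059 had 1331 CPM. In PacBio, ENSG00000264281 had 2 counts and the other 4 copies had none. So in ONT 4 of the copies stood close to the gene itself, and in PacBio gene and copies were together at the limit of detection.

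RPS28, a protein of the small ribosomal subunit, differs in that the PacBio counts of the family lay at a copy. The coding sequence is set beside 2 copies, with capitals at bases that differ from the gene.

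RPS28 coding sequence: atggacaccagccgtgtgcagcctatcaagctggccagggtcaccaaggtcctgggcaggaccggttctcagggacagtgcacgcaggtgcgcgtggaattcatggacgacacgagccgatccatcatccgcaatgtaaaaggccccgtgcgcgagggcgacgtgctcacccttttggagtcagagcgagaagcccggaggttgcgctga
RPS28P4: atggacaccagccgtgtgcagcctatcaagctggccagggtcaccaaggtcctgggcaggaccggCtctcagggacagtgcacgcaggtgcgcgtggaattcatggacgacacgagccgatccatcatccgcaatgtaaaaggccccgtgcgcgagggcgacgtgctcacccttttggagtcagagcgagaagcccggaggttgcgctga
ENSG00000227077: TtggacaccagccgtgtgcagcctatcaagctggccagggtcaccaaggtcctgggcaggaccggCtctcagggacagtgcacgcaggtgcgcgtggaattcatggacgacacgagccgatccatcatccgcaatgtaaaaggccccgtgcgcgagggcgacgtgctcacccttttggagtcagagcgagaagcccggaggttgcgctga

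RPS28P4 differs from the 210 bases of the RPS28 coding sequence at 1 base, ENSG00000227077 at 2 bases, and RPS28P7, which is not printed because it is identical, at none. ONT gave RPS28 3305 CPM, RPS28P7 3507, RPS28P4 3354 and ENSG00000227077 2349. PacBio gave RPS28P7 7 counts and gave RPS28, RPS28P4 and ENSG00000227077 0 counts. Another 7 tested copies share this arrangement, with at least 3 PacBio counts at the copy and 0 at the coding gene that matches it best. RPS27P3 had 8 PacBio counts against 0 for RPS27 and RPL36AP37 had 7 against 0 for RPL36A. Those families were picked out after their values were seen, and no source used here says how the authors' counting treated reads that match several places, so counts of these genes and copies are uncertain as a division within a family.

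Added up over the gene and the pseudogenes named for it, every ribosomal protein family was lower in PacBio. The 79 ribosomal protein genes took 13.5%, 12.6% and 13% of counts in ONT replicates 1, 2 and 3, and 0.412%, 0.372% and 0.979% in PacBio. Pseudogenes named for them took 16.8%, 15.8% and 16.2% in ONT and 0.0957%, 0.105% and 0.228% in PacBio. PacBio replicate 3 was the highest PacBio library in both, and still far below every ONT library. In ONT the sum of the pseudogenes named for a gene exceeded the gene in 38 of 79 families. In PacBio 56 of 79 families had no count at such a pseudogene. Copies known only by an identifier are left out of these families. Among them are ENSG00000264281, the RPL41 copy with 2 PacBio counts, and ENSG00000237550, which matches RPL9 best and had 11. Genes and the pseudogenes named for them together held 29.3% of ONT counts and 0.697% of PacBio counts. The family sum was lower in PacBio in 79 of 79 families (median 46.3-fold). All 78 tested ribosomal protein genes were called lower with TMM scaling, with RLE scaling and with library totals, although 41 of them were tested only because ONT passed the filter. The large subunit list had a median of -7.38 relative to all tested genes and the small subunit list -7.45, with genes under 3 PacBio counts placed at their bound. RPL4 had the highest ratio of the large subunit, at 184, 220 and 503 CPM in PacBio and 678, 599 and 691 CPM in ONT (log2 -3.95 ± 0.38, edgeR adjusted p = 1.1e-07).

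**Figure D1:**
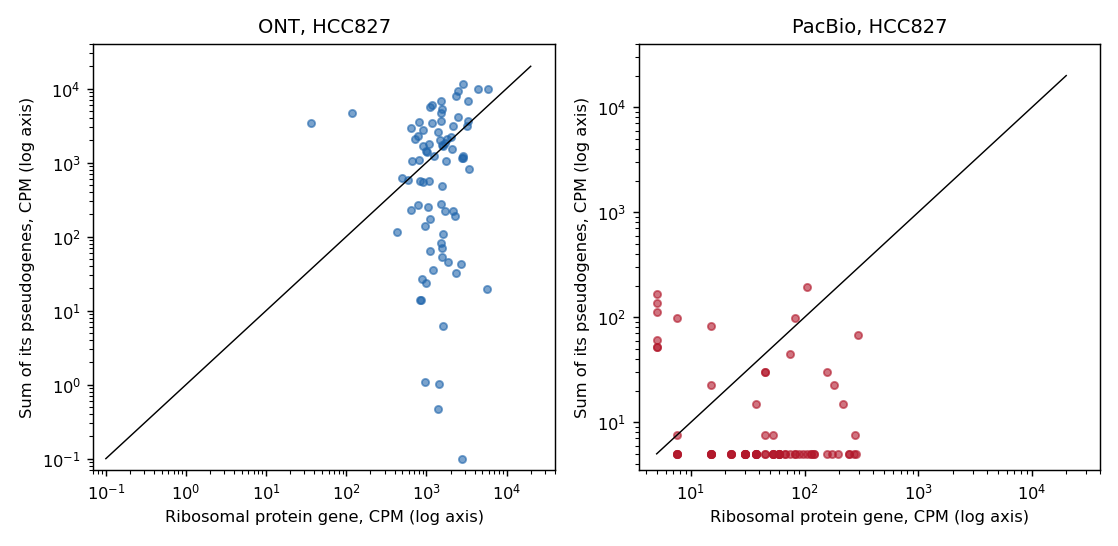
Each point is 1 of the 79 ribosomal protein families, for the 3 ONT libraries (left) and the 3 PacBio libraries (right) of HCC827. The horizontal axis gives the CPM of the gene and the vertical axis the summed CPM of the pseudogenes named for it (both log axes). The line marks equal values and zeros are drawn at the axis limit (0.1 CPM for ONT, 5 CPM for PacBio). In ONT 38 families lie above the line, and in PacBio 56 families have no count at pseudogenes named for the gene.

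Most tested coding genes with a tested processed pseudogene inside their span had an ONT level close to that of the pseudogene. DGKI, a diacylglycerol kinase gene best known from neurons, had the highest ONT level of all genes tested: 6926, 6610 and 6819 CPM in replicates 1, 2 and 3, and 0 counts in every PacBio library, which makes it at least 301-fold lower in PacBio (floor of 3 counts over the group). The identical RPL41 copy ENSG00000279483 lies inside DGKI on the other strand. IL6ST, the signalling receptor shared by the interleukin 6 family, had 5912 CPM in ONT and 6 PacBio counts, and the RPL41 copy inside it had 5365 CPM in ONT. CSF1R, the macrophage growth factor receptor, had 2916, 2573 and 3337 CPM in ONT and 3 PacBio counts (ratio 130, interval 44.6 to 632). RPL7P1 inside CSF1R had 2936 CPM in ONT, 99.96% of the level counted for CSF1R. NBEAL1 had 2466 CPM in ONT and RPL12P16 inside it 2464, while SMOC1 had 1515 and RPL7AP6 inside it 1515, with 0 PacBio counts for all 4. HERC2 had 1336 CPM in ONT beside RPL41P2 with 1331, and 2 PacBio counts (ratio 88.9, interval 24.6 to 734).

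Over all tested protein-coding genes, 127 contained a tested processed pseudogene. In 117 of them the ONT level of that pseudogene was 80% to 125% of the level of the host (limits set after the values were seen), and in 75 of the 117 the pseudogene lay on the strand opposite to the host. Of these 117 hosts 43 had no PacBio count and 63 had fewer than 3. The pseudogenes had to pass the filter too, and 298 of the 323 did so with fewer than 3 PacBio counts, through ONT alone. Where a host held several, the pseudogene with most ONT counts was taken. So 117 of 127 describes hosts and pseudogenes chosen in part by their ONT level. A tested gene with 0 PacBio counts could pass the filter only through a high ONT level, so the next shares are descriptions of genes chosen in that way. Among the 40 tested coding genes with 0 PacBio counts and a canonical transcript over 2000 bases, 39 (97.5%) hold an annotated processed pseudogene in their span, against 403 of 2392 (16.8%) of those with PacBio counts. ZYG11B (1240 CPM in ONT), PPP1R12B (1292), RIPOR2 (1339), CCSER1 (1098), EPHA5 (757) and PTPRD (607) are examples. SMOC1 and ZYG11B share no exon base with any other gene of the annotation. RBFOX2, a splicing regulator, was the second highest gene in ONT with 6322, 6124 and 6095 CPM and had 10 PacBio counts (log2 -9.20 ± 0.42, edgeR adjusted p = 1.6e-10), but no tested pseudogene was found in its span.

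Copies of the mitochondrial genome in the nuclear genome followed the same pattern. The 37 genes of the mitochondrial genome itself had 0 counts in all 6 libraries, and no source used here says whether alignments to it were counted. Pseudogenes named for mitochondrial genes took 0.648%, 0.823% and 0.562% of ONT counts and 0 PacBio counts, which allows at most 22.5 CPM for each. MTCO2P12, a copy of a cytochrome oxidase subunit gene at chr1:632757-633438, had 2858, 2855 and 2537 CPM in the ONT libraries. MTCO1P12 had 1259 CPM and MTATP6P1 836 CPM over the ONT libraries. ENSG00000230021, a transcribed pseudogene that overlaps MTCO1P12 and MTCO2P12 on the opposite strand, had 5880 CPM in ONT. It is not named for a mitochondrial gene and is counted among the tested processed pseudogenes above. Its best coding match was SEPTIN14 (99.4% identity over 97.3% of its transcript). With the floor of 3 counts over the group, PacBio was at least 261-fold lower for ENSG00000230021.

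**Figure D2:**
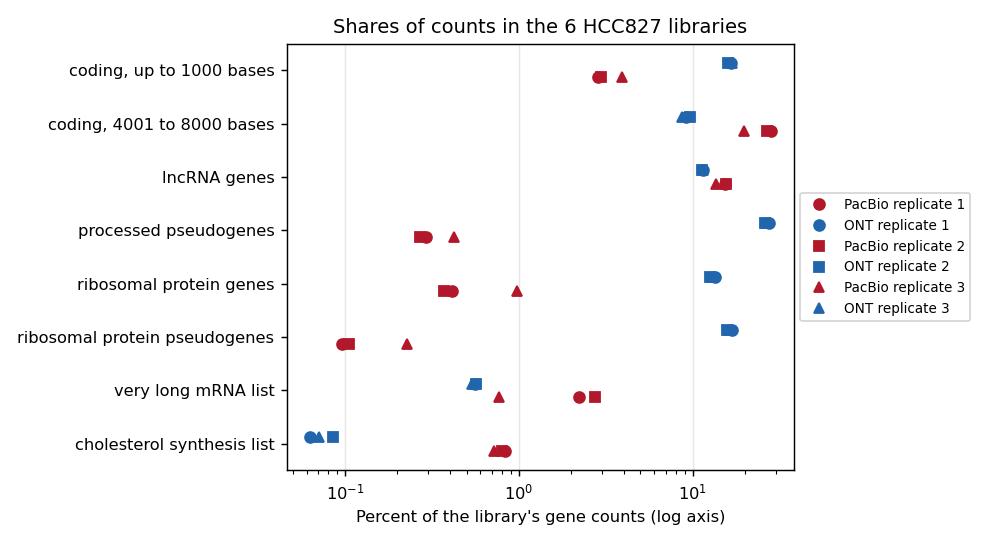
Percent of each library's gene counts (log axis) in 8 gene classes, for the 3 PacBio (red) and the 3 ONT (blue) libraries of HCC827, with a symbol for each replicate number. Processed pseudogenes take 26.1% to 27.5% of ONT counts and 0.271% to 0.423% of PacBio counts, and PacBio replicate 3 lies apart from replicates 1 and 2 for the very long mRNAs (0.770% against 2.22% and 2.75%).

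Transcript length ordered the ratios of protein-coding genes. Coding genes with a canonical transcript of at most 500 bases had a median log2 ratio of -7.64 (50 genes, 47 called lower and 2 higher). From there the median climbed through -5.38 for 500 to 1000 bases (311 genes), -2.93 for 1000 to 1500 bases (268) and -1.06 for 1500 to 2000 bases (364) to 0.05 for 2000 to 3000 bases (795). It was highest for 4000 to 6000 bases, at 0.87, where 282 of 657 genes (background 23.6%) were called higher and 119 lower, and it came down to 0.16 above 8000 bases (175 genes). With library totals the median was -4.76 in the shortest class, -0.05 for 1000 to 1500 bases, 2.91 for 2000 to 3000 bases and 3.74 for 4000 to 6000 bases, so the order was the same and the class nearest to equal levels was a shorter one. Counts moved accordingly: coding genes with transcripts of up to 1000 bases held 16.6%, 15.9% and 16.7% of ONT counts and 2.85%, 2.97% and 3.91% of PacBio counts. Coding genes over 4000 and up to 8000 bases held 9.15%, 9.59% and 8.70% of ONT counts and 28.1%, 26.6% and 19.7% of PacBio counts. The transcript length below which 50% of coding counts lie was 3600, 3506 and 2872 bases in PacBio and 1865, 1938 and 1812 bases in ONT.

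PacBio replicate 3 had shorter transcripts than the other PacBio libraries, and its longest classes were ordered differently. In pair 3 the median was highest at 3000 to 4000 bases (0.31), and the class over 8000 bases lay below the class of 2000 to 3000 bases (-0.09). In the 4000 to 6000 base class the median log2 ratio of pair 3 was 0.14, against 0.80 and 0.66 in pairs 1 and 2, and above 8000 bases it was -0.44 against 0.15 and 0.19. Across all tested genes the ratio rose by 0.97, 0.86 and 0.84 log2 units per doubling of transcript length in pairs 1, 2 and 3 (a slope on log2 of TMM-scaled CPM plus 10). Pairs 1 and 2 contain the PacBio libraries that are counted as 1 sample elsewhere, so no error or test over pairs is given. In H1975 the mean slope of the pairs was 0.86. Base composition also went with the ratio. Within coding transcripts of 2000 to 6000 bases the median log2 ratio was -0.02 at 40 to 45% GC (342 genes) and 1.07 above 65% GC (64 genes), with 0.36 below 40% GC (224 genes).

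**Figure D3:**
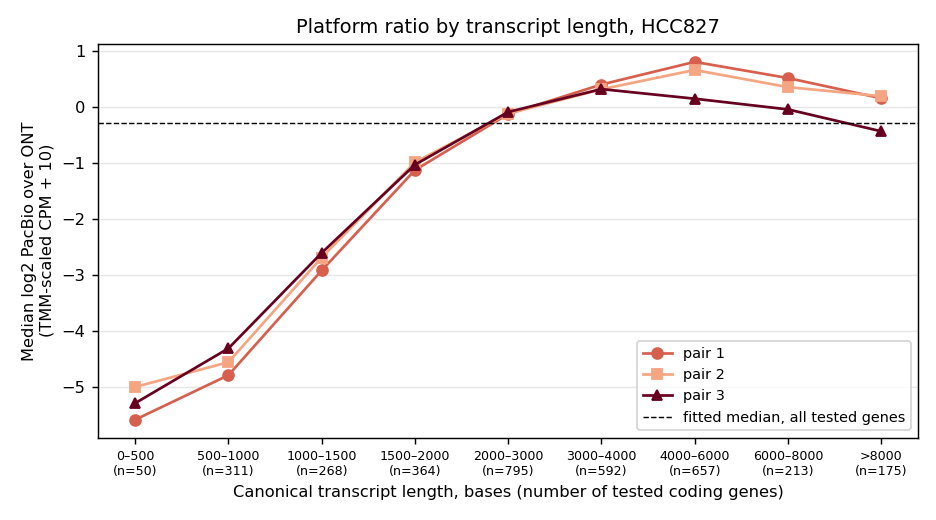
Median log2 ratio of PacBio over ONT (TMM-scaled CPM plus 10) of tested protein-coding genes in classes of canonical transcript length in bases, with 1 line for each of the 3 pairs of same-numbered libraries and a dashed line at the fitted median of all tested genes (-0.29). The 3 lines climb together up to 3000 bases, and above 4000 bases pair 3 (0.14 in the 4000 to 6000 base class) lies below pairs 1 and 2 (0.80 and 0.66).

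Gene lists with short mRNAs were low in PacBio. Their counts are set against 23.6% higher and 41.9% lower among all tested genes (67.0% and 23.3% with library totals). Nuclear genes of oxidative phosphorylation, the subunits of the respiratory chain and ATP synthase, summed to 11020, 10744 and 11086 CPM in ONT and to 2024, 2298 and 4286 CPM in PacBio. Of 53 tested, 49 were lower and none higher (39 lower and 6 higher with library totals, 38 tested through ONT alone), and the median was -5.11 relative to all tested genes. COX6A1, a cytochrome oxidase subunit, had 443, 369 and 436 CPM in ONT and 3 PacBio counts (ratio 18.5, interval 6.3 to 89.9). At the other end of the list stood SDHA, the catalytic subunit of succinate dehydrogenase with a transcript of 2693 bases, at 184, 269 and 370 CPM in PacBio and 28.2, 38.6 and 34.6 CPM in ONT, not called with TMM scaling (log2 0.17 ± 0.36, adjusted p = 0.69) and higher with library totals. S100 proteins and annexins, which bind calcium, had 11 of 13 tested members lower and none higher (5 lower and 5 higher with library totals). S100A6 alone had 5022, 5335 and 5537 CPM in ONT against 2, 0 and 2 PacBio counts. It was 176-fold lower in PacBio on library totals (TMM log2 -10.32 ± 0.45, edgeR adjusted p = 1.4e-10).

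NRF2 target and antioxidant genes, which detoxify peroxides and electrophiles, had 16 of 19 tested members lower and none higher (11 lower and 5 higher with library totals), with a median of -4.64. GSTP1, a glutathione transferase, had 1141, 1109 and 1371 CPM in ONT and 73.6, 73.3 and 132 CPM in PacBio (log2 -6.59 ± 0.40, adjusted p = 6.1e-10). Proteasome subunits were lower in 20 of 23 tested members with a median of -3.0 (with library totals 8 lower and 5 higher), and mitochondrial ribosomal proteins in 17 of 18 with a median of -2.46 (with library totals 5 lower and 4 higher). All 6 tested host genes of small nucleolar RNAs were lower, 4 of them also with library totals. GAS5, one of these hosts, had 372, 375 and 460 CPM in ONT and 3 PacBio counts (ratio 17.7, interval 6.1 to 85.9). TMSB10, an actin-binding peptide of the cytoskeleton list, had 4342 CPM in ONT and 67.6 in PacBio (log2 -8.83 ± 0.44, adjusted p = 1.9e-10), while MYH9, the heavy chain of non-muscle myosin in the same list, went the other way, with 2116, 2127 and 1693 CPM in PacBio and 47.8, 112 and 38.3 CPM in ONT (log2 2.02 ± 0.37, adjusted p = 0.00029).

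Keratins and glycolytic enzymes, among the most abundant mRNAs of an epithelial tumour line, were mostly lower in PacBio. KRT19, a keratin of simple epithelia, had 258, 318 and 979 CPM in PacBio and 1642, 2551 and 2601 CPM in ONT. The groups did not overlap, and PacBio replicate 3 was the highest PacBio library (log2 -4.88 ± 0.46, adjusted p = 3.1e-07). KRT18 and KRT8, which pair to form a filament, were lower as well (log2 -4.75 ± 0.41 and -3.80 ± 0.37), and KRT80 with its longer mRNA was not called (0.60 ± 0.36, adjusted p = 0.15). GAPDH, a glycolytic enzyme often used as a reference gene, had 147, 220 and 661 CPM in PacBio and 5213, 6136 and 7184 CPM in ONT. It was 19.3-fold lower in PacBio on library totals (TMM log2 -6.98 ± 0.47, edgeR adjusted p = 4.1e-09). Of 17 tested glycolysis genes 11 were lower (background 41.9%) and 1 higher (background 23.6%) with TMM scaling, and with library totals 3 were lower and 9 higher. That higher gene was PFKL, a phosphofructokinase (346 CPM in PacBio, 21.2 in ONT, log2 1.22 ± 0.40, adjusted p = 0.014), a call lost without PacBio replicate 3 (adjusted p = 0.23). ACTB, another common reference gene, had 589, 513 and 1640 CPM in PacBio and 847, 1038 and 762 CPM in ONT, so that the groups overlapped. It was called lower with TMM scaling (log2 -2.64 ± 0.39, adjusted p = 2.8e-05) and had a log2 ratio of 0.20 with library totals (adjusted p = 0.61).

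Genes of cholesterol and fatty acid synthesis were high in PacBio. The 28 listed genes summed to 8263, 7944 and 7170 CPM in PacBio and to 628, 856 and 704 CPM in ONT, groups that did not overlap and a list in which PacBio replicate 3 did not stand apart. Of 18 tested, 9 were called higher (background 23.6%) and 2 lower, and with library totals 17 were higher and none lower. As 14 of the 18 passed the filter through PacBio alone, these counts are a description. The median was 1.26 relative to all tested genes. FASN, the fatty acid synthase, had 1822, 2151 and 688 CPM in PacBio and 20.2, 55.3 and 18 CPM in ONT. It was 52.6-fold higher in PacBio on library totals (TMM log2 2.63 ± 0.52, edgeR adjusted p = 0.0016). SREBF1, the transcription factor that switches on lipid synthesis, had 872 CPM in PacBio and 24.1 in ONT (log2 2.33, adjusted p = 1.2e-05), and its relative SREBF2 316 and 9.16 CPM (log2 2.14, adjusted p = 0.00045). FDPS, of the same pathway, was lower with TMM scaling (log2 -3.39 ± 0.40, adjusted p = 1.0e-06) and not called with library totals.

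The very long mRNAs differed between PacBio libraries, with replicate 3 lowest. FLNA, the actin crosslinker filamin A, was the highest gene in PacBio at 10122, 14593 and 2090 CPM in replicates 1, 2 and 3, and had 91.1, 267 and 94.6 CPM in ONT. Every PacBio library lay above every ONT library, while PacBio replicate 3 was low within its group and ONT replicate 2 high within its own. The fitted log2 ratio was 2.72 ± 0.87 (adjusted p = 0.046), a call lost without PacBio replicate 1 (adjusted p = 0.077), without ONT replicate 2 (0.13) and with filterByExpr (0.14). The 57 listed genes summed to 22157, 27451 and 7699 CPM in PacBio and 5598, 5668 and 5366 CPM in ONT. Of 22 tested, 7 were higher (background 23.6%) and 5 lower (background 41.9%), and with library totals 17 and 3. Since 15 of the 22 passed the filter through PacBio alone, these counts are a description. The 5 genes lower with TMM scaling include NBEAL1, HERC2 and MDN1, the first 2 of them with a ribosomal protein pseudogene inside as described above. DYNC1H1, the motor chain of dynein with a transcript of 19940 bases, was higher (661 CPM in PacBio, 23.5 in ONT, log2 1.81, adjusted p = 0.0015).

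EGFR, the receptor that drives this line, was among the genes higher in PacBio, and its call was not stable. PacBio gave 2116, 1564 and 1693 CPM and ONT 135, 206 and 91.3 CPM, 12.7-fold apart on library totals with no overlap. The TMM log2 ratio was 0.79 ± 0.30 (adjusted p = 0.031), and the call was lost without PacBio replicate 3 (adjusted p = 0.14), without ONT replicate 1 (0.11), without ONT replicate 3 (0.35) and without a filter (0.14). ERRFI1, a feedback inhibitor of EGFR, was higher (256 CPM in PacBio, 15.0 in ONT, log2 1.29 ± 0.37, adjusted p = 0.0063, but 0.13 without PacBio replicate 3), as was the adaptor SHC1 (log2 0.98, adjusted p = 0.030). GRB2, an adaptor with 128 CPM in PacBio and 51.0 in ONT, was lower with TMM scaling (log2 -1.52) and higher with library totals. GAB1, a docking protein, had 1 PacBio count and 595 CPM in ONT (ratio 79.2, interval 14.2 to 3129), and the processed pseudogene ENSG00000228981 inside GAB1 had 594 CPM in ONT. Beside EGFR on chromosome 7, SEC61G, a small subunit of the protein channel of the endoplasmic reticulum, had 2409, 2125 and 2008 CPM in ONT and 36.8, 24.4 and 185 CPM in PacBio (log2 -7.66 ± 0.49, adjusted p = 9.9e-10). EGFR stood above SEC61G in every PacBio library and below it in every ONT library.

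Epithelial junction genes went both ways. CTNND1 (p120 catenin) had 699, 660 and 370 CPM in PacBio and 12.8, 19.6 and 11.5 CPM in ONT (log2 2.38 ± 0.34, adjusted p = 1.1e-05), and the plaque and scaffold genes CTNNA1, EVPL, PPL and TJP3, the desmosomal cadherin DSG2 and the splicing regulators ESRP1 and ESRP2 were higher too. JUP, another plaque gene, was lower with TMM scaling (log2 -1.68) and higher with library totals. The small membrane proteins CLDN7, CLDN4 and CLDN3 and the adhesion protein EPCAM were lower with TMM scaling (log2 -2.31, -2.07, -1.56 and -2.12) and not called with library totals. CDH1, E-cadherin, was not called (556 CPM in PacBio, 59.6 in ONT, log2 0.37 ± 0.29, adjusted p = 0.28). In all 9 of 24 tested members were higher (background 23.6%) and 8 lower (background 41.9%). With library totals the numbers were 19 and 1, and 16 of the 24 passed through PacBio alone. TJP1 was the lowest of the list, with 6 PacBio counts and 191 CPM in ONT (log2 -5.0 ± 0.49). HMGN2P5, a processed pseudogene inside TJP1, had 152 CPM in ONT, 79.3% of the level counted for TJP1.

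Aminoacyl-tRNA synthetases and splicing factors had medians near that of all tested genes, but only with this filter. At a mean CPM of at least 100 the medians were 1.25 and 0.72. Without both libraries of a replicate number, the median of the splicing factors ranged from -0.67 to -0.30. The 20 synthetases, which load amino acids onto tRNAs, had a median of 0.10 with 3 higher and 5 lower, and with library totals 20 of 20 were higher. VARS1 had the highest ratio (405, 684 and 820 CPM in PacBio, 15.7, 36.3 and 18 CPM in ONT, log2 1.95 ± 0.39, adjusted p = 0.00038). SR and hnRNP splicing factors had a median of -0.05 with 2 higher and 12 lower of 25, and 21 higher and 1 lower with library totals. The next lists are read against 23.6% higher and 41.9% lower among all tested genes, and several lie near those shares. Heat shock chaperones had 2 higher and 16 lower of 30 (median -0.67), translation factors 3 and 22 of 33 (-1.52), cytoskeletal genes 4 and 20 of 29 (-2.0), lysosomal genes 4 and 10 of 22 (-0.17), mitotic genes 3 and 6 of 15 (-0.21), interferon-stimulated genes 2 and 7 of 19 (-0.43) and MHC class I genes 2 and 6 of 10 (-1.19). With library totals the numbers of higher and lower genes were 23 and 2 for the chaperones, 18 and 11 for the translation factors, 13 and 8 for the cytoskeleton, 18 and 2 for the lysosome, 12 and 2 for mitosis, 12 and 5 for the interferon list and 6 and 1 for MHC class I. Within the MHC class I list ERAP1, a peptide-trimming peptidase with a long mRNA, was higher (1012, 782 and 794 CPM in PacBio, 23.9, 25.1 and 23.4 in ONT, log2 2.29 ± 0.27, adjusted p = 1.3e-06) and B2M, the short light chain, was lower (135 CPM in PacBio, 338 in ONT, log2 -4.13 ± 0.42). Among the surfactant and alveolar genes LPCAT1, which remodels surfactant lipid, was higher (1399, 1124 and 2355 CPM in PacBio, 47.0, 73.6 and 46.3 in ONT, log2 2.15 ± 0.30, adjusted p = 1.2e-05) and SFTA2 had 1 PacBio count and 330 CPM in ONT (ratio 43.9, interval 7.9 to 1733).

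**Figure D4:**
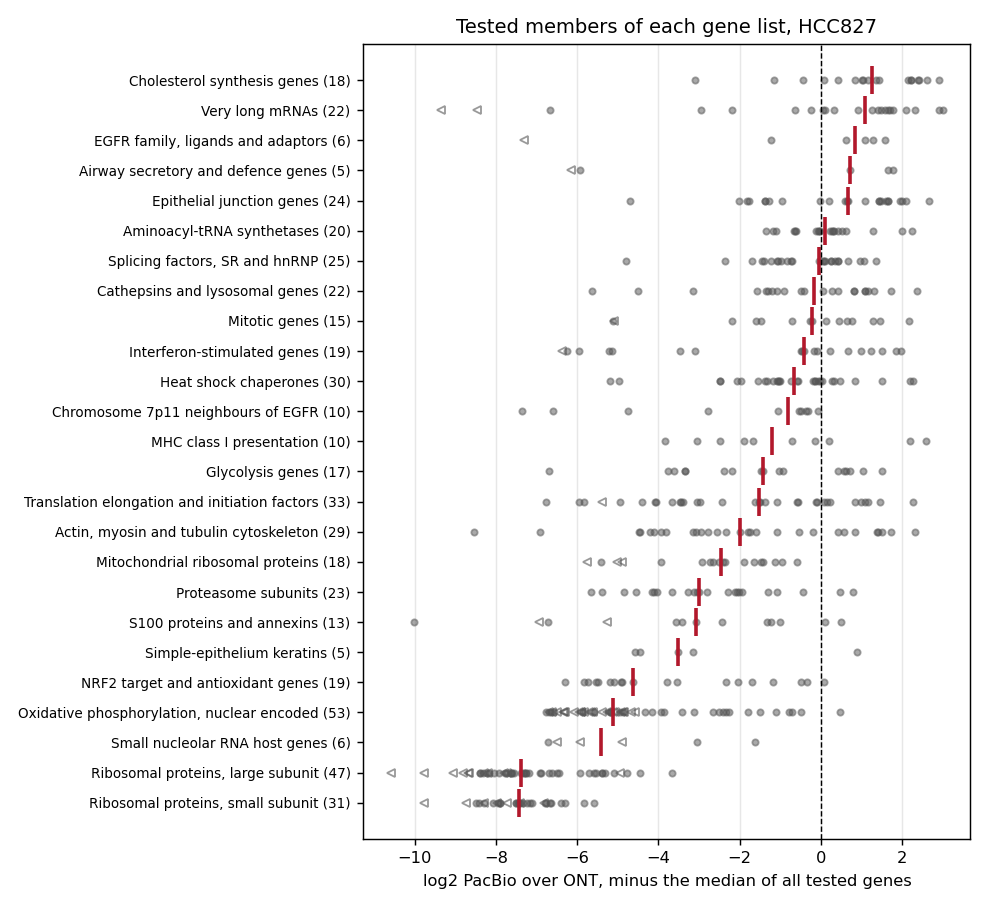
Log2 ratio of PacBio over ONT minus the median of all tested genes (dashed line at 0) for each tested member of 25 gene lists, with the number tested in brackets and the list median as a red bar. Open triangles mark members with fewer than 3 PacBio counts, drawn at the bound set by 3 counts over the group. List medians run from -7.45 for the small ribosomal subunit to 1.26 for cholesterol synthesis.

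Among genes that share no exon base with another gene, the highest ratios belonged to INHA, HS6ST1 and USP19. INHA, the alpha subunit of the hormone inhibin, had 55.2, 220 and 238 CPM in PacBio and 0.635, 0.514 and 1.08 CPM in ONT. It was 215-fold higher in PacBio on library totals (TMM log2 4.94 ± 0.74, edgeR adjusted p = 1.9e-05). In counts its PacBio values were 3, 9 and 9. HS6ST1, a heparan sulfate sulfotransferase, was 96.2-fold higher on library totals (TMM log2 3.66 ± 0.69, edgeR adjusted p = 0.00022), from 8, 7 and 4 PacBio counts. USP19, a deubiquitinase, had 313, 318 and 52.9 CPM in PacBio and 2.02, 4.35 and 1.96 CPM in ONT (log2 3.41 ± 0.59, adjusted p = 0.00011). ANAPC2, OSBPL5, NLRX1, BCAM, FASN, PAM and LAMB2 followed, from 81.5-fold down to 48.9-fold. All 10 were higher in 3 of 3 pairs, also with library totals. At the lower end of the same rule stood RPL41, CSF1R, ARMC9, RBFOX2, RPS12, SMOC1, HERC2, RPL37A, ZYG11B and RPS18, each lower in 3 of 3 pairs.

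The 5 genes with the highest ratios of all share bases with a longer gene, and their PacBio counts were 67.5% to 100% of those of that gene. MIR6852, a miRNA gene of 66 bases inside TLN1, had 460, 587 and 26.5 CPM in PacBio and 0.0944, 0.161 and 0.142 CPM in ONT. Its PacBio count was 72.5% of that of TLN1 (50 and 69 counts), and its ONT level was 0.399% of that of TLN1. MIR7855 stood at 95.7% of SPTB in PacBio and 1.28% in ONT, ANGPTL8 at 67.5% and 1.13% of DOCK6, ENSG00000269148 at 100% and 5.22% of SYMPK, and ARAP1-AS2 at 89.7% and 2.33% of ARAP1. The PacBio value of such a gene cannot be separated from its neighbour, since no source used here gives the strand setting of the counting or its rule for reads over several genes. Pairs of tested genes with a shared exon base and at least 20 PacBio counts number 537 on opposite strands and 205 on the same strand. The pairs were chosen by their PacBio counts, so ONT values are not set against them as a group. PacBio counts were within 10% of each other in 240 of the 537 opposite-strand pairs and 70 of the 205 same-strand pairs. GAPDH and ENSG00000269968 had 42 and 42 PacBio counts, and in ONT 6097 and 6013 CPM. EGFR and EGFR-AS1 had 243 and 102 PacBio counts and 144 and 6.55 CPM in ONT.

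**Figure D5:**
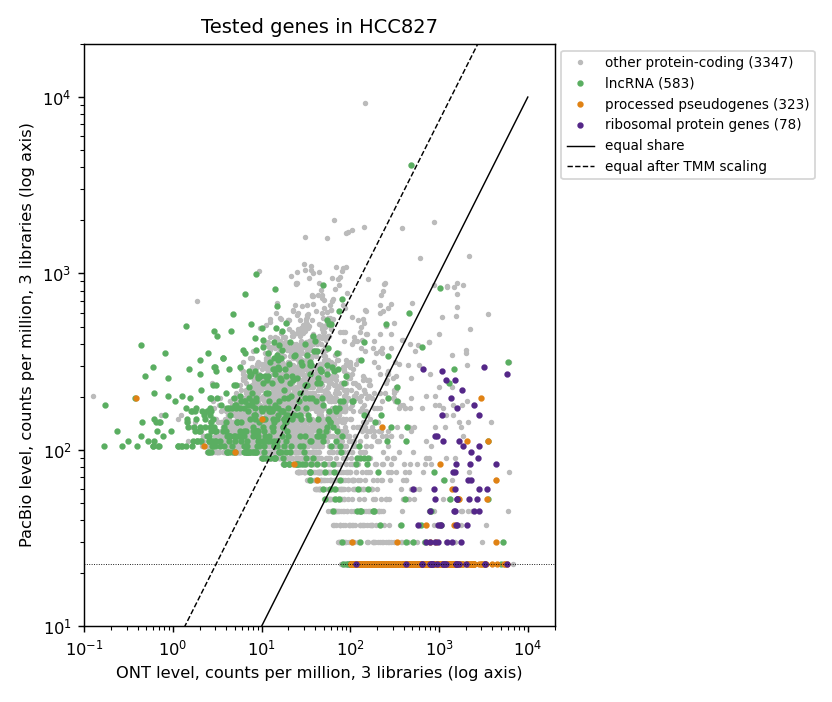
PacBio level against ONT level (CPM over the 3 libraries of each, both log axes) of the 4459 tested genes in HCC827, coloured for ribosomal protein genes, processed pseudogenes, lncRNA genes and other protein-coding genes. The dotted line is the PacBio floor of 3 counts (22.5 CPM), where genes with fewer counts are drawn. The solid line marks equal shares of the library and the dashed line equal levels after TMM scaling, and the 78 ribosomal protein genes lie below both.

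Long non-coding RNA genes held 15.3%, 15.6% and 13.7% of PacBio counts and 11.4%, 11.3% and 11.5% of ONT counts. Of 583 tested 228 were higher and 187 lower, where 23.6% and 41.9% of all tested genes were, and with library totals 430 were higher and 112 lower. Of the 515 that share exon bases with another gene 204 were higher and 158 lower, and of the 68 that share none 24 were higher and 29 lower. MALAT1, an abundant nuclear transcript, had no count in any PacBio library and 379, 186 and 47.7 CPM in ONT replicates 1, 2 and 3. Over the 3 PacBio libraries 0 counts allow up to 22.5 CPM, and in replicate 3 the ONT level was below what 3 counts in that PacBio library would amount to. The ONT libraries themselves differed widely. With TMM scaling the edgeR adjusted p was 0.063, against 1.3e-10 with the replicate number as a block. MALAT1 was thus not called with TMM scaling and was called lower with library totals. MIR4435-2HG, the other tested member of a list of well-known lncRNAs, was lower with both scalings (45.1 CPM in PacBio, 120 in ONT, log2 -4.33 ± 0.50, adjusted p = 9.4e-07). Histone genes of the replication-dependent class, whose mRNAs end without a poly(A) tail, had 6 PacBio counts in all. They summed to 36.8, 48.9 and 52.9 CPM in PacBio replicates 1, 2 and 3 and to 234, 217 and 234 CPM in ONT. None of these genes was tested.

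PacBio had counts in more genes than the same number of ONT counts would. It detected 11158, 10423 and 9001 genes with at least 1 count in replicates 1, 2 and 3, and ONT detected 37039, 36355 and 35487. At the depth of the PacBio library of the same number, ONT would be expected to detect 6813, 6447 and 5653 genes (rarefaction, computed without drawing). This sets PacBio counts against ONT reads, and the part of clustering in the difference was not tested. The 100 genes with most counts took 9.92%, 10.6% and 12.9% of PacBio libraries and 30.7%, 29.9% and 30.7% of ONT libraries. The ratio also changed with level. Among tested genes with a mean of 50 to 100 CPM the median log2 ratio was 0.09 (2456 genes). From 400 to 800 CPM it was -7.83 (230 genes), of which 199 were lower and 28 higher. The classes also differ in make-up. At 400 to 800 CPM 76 genes had 0 PacBio counts and 57.8% were protein-coding, against 139 genes and 80.5% at 50 to 100 CPM. The part of this make-up in the change was not tested.

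The differences recurred in H1975. Of 3470 genes tested in both lines, 737 were higher in PacBio in both and 1534 lower in both, and 3 were called in opposite directions. In H1975 1536 of 4830 genes (31.8%) were higher and 2283 (47.3%) lower. Across the 2792 genes with at least 3 PacBio counts in each line, the log2 ratios correlated with Pearson r = 0.967 and Spearman rho = 0.958. Genes are not independent of each other, so both values are descriptions, and the lines share no library. The interaction of line and platform was called for 7 of 4670 genes (0.15%) with edgeR. DGKI had 5663 CPM in ONT and 0 PacBio counts in H1975 as well, and SMOC1 930 CPM and 0 counts.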

How the data were processed

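The deposited files hold whole-number counts of alignments per gene, made by the authors with minimap2 2.17 and featureCounts on GRCh38, per the submitters' processing notes. Per the file headers, the PacBio alignments counted were of clustered sequences. No source used here gives the annotation release, the strand setting or the handling of reads that match several genes or places. The 76 spike-in rows were left out, 45 second copies of genes on X and Y were added to the first, and 58207 of the 58676 resulting genes were matched to GENCODE 44. The 6 Illumina libraries of the series were not used.

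Genes with a mean of the platforms' CPM of at least 50 were tested with edgeR 4.0.16 (R 4.3.3): TMM scaling, robust quasi-likelihood test and Benjamini-Hochberg adjustment over all tested genes, with calls at an adjusted p below 0.05. A CPM of 50 equals 6.65 counts over the 3 PacBio libraries. PacBio replicates 1 and 2 were summed. The script was tested on simulated data. Same-numbered libraries come from the same RNA sample per the labels, and their deviations from the group means correlated by 0.25, 0.22 and 0.36 in pairs 1, 2 and 3 (335 genes). Alternatives were RLE scaling, library totals, other filters, DESeq2 1.42.0, limma-voom 3.58.1, the replicate number as a block and leaving out each library. Single values were compared by exact permutation tests. Intervals and floors cover counting error only.

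Genes were named by rule: the 10 highest and 10 lowest called coding genes that share no exon base with another gene, the 5 highest and 5 lowest of all, the 10 most abundant, the highest and lowest of each list, 9 control genes and the 5 smallest p-values of the interaction. Some genes that meet the rule are not reported here. Hosts of pseudogenes and further list members were named after their values were seen. The gene lists and the comparison itself were chosen with earlier results of these data known. Many named genes share exon bases with a neighbour (among them FLNA, EGFR, GAPDH, MYH9, KRT8, KRT18, S100A6, TMSB10, SEC61G, ERAP1, CTNND1, CDH1 and MALAT1), and their counts are uncertain to that extent.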

Additional observations from a re-analysis of the deposited data

Results flagged for a closer look

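The ratio of PacBio over ONT differed between HCC827 and H1975 for 5 named genes by the test of the interaction itself (edgeR, log2 of HCC827 minus H1975). ARHGAP4 had an interaction of -2.87 ± 0.47 (adjusted p = 0.035), with 45.1 CPM in PacBio and 208 in ONT in HCC827 against 145 and 99.5 in H1975. For SNRPD3 it was 2.53 ± 0.41, with 263 and 47.0 CPM in HCC827 against 96.8 and 106 in H1975. CHURC1-FNTB had 2.02 ± 0.35 (adjusted p = 0.042), ENSG00000267110 had 3.87 ± 0.61 and ENSG00000257341 had 8.32 ± 1.29, the last with 1 PacBio count in H1975. All 5 share exon bases with a gene on the same strand, and the part of that overlap in the result was not tested.

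Spike-in RNAs, which no comparison used, took 0.0834% of the PacBio counts (111 counts) and 0.972% of the ONT counts. By library the share was 0.0754%, 0.127% and 0.0476% in PacBio and 0.936%, 1.42% and 0.559% in ONT, so replicate 2 was highest and replicate 3 lowest on both platforms.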

How the results depend on the processing

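With the replicate number as a block and all libraries separate, the genes higher in PacBio than ONT in HCC827 numbered 1259, the genes lower in PacBio than ONT in HCC827 numbered 2024, and 1051 of the 1052 higher and 1870 of the 1870 lower calls were kept. Without the block, separate libraries gave 1201 and 1990, and the block with the close PacBio pair summed gave 874 and 1913. Counts higher and lower moved to 2986 and 1039 with library totals, 571 and 1011 at a mean CPM of at least 100, 2075 and 5233 with filterByExpr and 1586 and 5726 without a filter, where the number of genes tested also changes except with library totals. Leaving out each library gave 836 to 1161 higher and 1723 to 1955 lower. The interaction count of 7 became 4 with RLE scaling, 4 with filterByExpr, 17 without a filter, 18 with DESeq2, 57 with limma-voom and 11 with the replicate block (10 without it), and 0 to 6 when a library was left out. The length slope was 0.67 with total exon length, 1.12 at a mean CPM of 100, 1.06 for coding genes alone and 0.96 with library totals. Without the pair of a replicate number it was 0.85 to 0.92. Genes detected by ONT at the PacBio depth were 6813, 6447 and 5653.

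Medians of lists relative to all tested genes, without the bound, at a mean CPM of at least 100 were -6.51 (large subunit), -6.50 (small subunit), -0.47 (translation factors), -5.48 (oxidative phosphorylation), -6.15 (small nucleolar hosts), 2.48 (very long mRNAs), 2.03 (EGFR family), 0.15 (7p11 neighbours), -2.59 (keratins), 1.58 (junctions), 1.69 (airway), 2.35 (cholesterol), -3.96 (NRF2), 0.22 (chaperones), -2.70 (proteasome), 1.25 (synthetases), 0.72 (splicing), -1.23 (cytoskeleton), -4.12 (S100 and annexins), -0.23 (MHC class I), -2.14 (interferon), 0.83 (mitotic), 0.25 (lysosomal) and -3.39 (mitochondrial ribosome). Without both libraries of a replicate number they ranged from -8.28 to -6.79, -8.89 to -6.98, -1.94 to -1.35, -6.32 to -5.64, -6.97 to -6.31, 0.89 to 1.71, 0.63 to 1.13, -1.51 to -0.72, -4.31 to -3.13, 0.69 to 0.77, 0.50 to 0.82, 1.11 to 1.45, -5.07 to -4.33, -1.45 to -0.58, -3.17 to -2.50, -0.25 to 0.20, -0.67 to -0.30, -2.63 to -2.02, -3.12 to -2.80, -1.52 to -1.10, -0.67 to -0.43, -0.25 to -0.02, -0.21 to 0.05 and -2.83 to -2.31, in the same order, and from -2.06 to -1.27 for glycolysis. The cause was not tested.

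Of 1462 alternative values of 93 named genes, 1410 kept direction and side of the threshold and 70 genes did so throughout. With library totals the sign turned for SNHG16 (0.95), PSPH (2.51), NARS1 (1.25), MRPL3 (2.00), CD68 (1.19), ACTB (0.20), EPCAM (0.76), SNRPD3 (2.46) and CHURC1-FNTB (1.63). It also turned for SDHA (-0.39) and PSMD2 (-0.20) without PacBio replicate 3, and for ANXA7 without PacBio replicate 1 (-0.16) and without ONT replicate 2 (-0.03).
Over the values without 1 library, SDHA reached 0.55 at most and ANXA7 0.57 at most.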
